A study of Homo sapiens with 24 samples.

Results

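The early response of ES8 cells to ionizing radiation was measured as the difference between 3 arrays of parental cells given 2 Gy of gamma radiation and 3 arrays of parental cells given 0 Gy, all harvested 4 h after treatment. These 6 arrays were taken from a series of 24 by their titles, and the difference was computed for each of the 17687 genes whose probe sets carry 1 gene symbol. ES8 is an established human Ewing sarcoma cell line, grown in DMEM/F12 medium with glutamine and fetal bovine serum. The other 18 arrays hold parental cells 24 h after either dose and a single derivative line, made by CRISPR/Cas9 knockout of SLFN11, at both doses and both times. SLFN11 encodes a nuclear protein that blocks stressed replication forks, and it was not targeted in the cells of the 6 arrays compared here. Its log2 signal was 8.19, 8.18 and 8.38 at 0 Gy and 8.05, 8.03 and 8.23 at 2 Gy. The dose groups of SLFN11 overlapped, with a difference of -0.14 (limma, SE 0.13, adjusted p = 0.878). Nothing in the labels says that replicates came from separate cultures. The p-values thus measure the spread between arrays within groups, estimated over all 24 arrays, which may be technical.

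Ionizing radiation breaks DNA, and the kinases ATM and ATR then hold cells before mitosis by keeping the cyclin B-CDK1 kinase inactive, which is known as the G2 checkpoint. Genes for mitosis are transcribed late in the cell cycle, in G2, by a complex of the MuvB core with MYBL2 (B-MYB) and FOXM1, and are silent early in the cycle, when the DREAM complex occupies the same promoters. Many of these promoters hold a short element named CHR (cell cycle genes homology region), to which MuvB binds, and CCAAT boxes, to which the activator NF-Y binds. Genes for DNA replication peak earlier, at the G1/S transition, and more often hold sites for E2F factors.

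Signals are log2 values, so a difference of -1 means a halved signal. Arrays within the 2 groups correlated at 0.985 to 0.993 and arrays of different dose at 0.983 to 0.994. Replicate 2 at 2 Gy had the narrowest interquartile range of the 6 (3.28, against 3.42 to 3.57). The background level of an array was set at the 95th percentile of its 612 negative controls (3.46 to 3.81 over the series). All 10 Ewing sarcoma markers measured were above this level on all 6 arrays. CD99, the surface protein used to diagnose these tumours, was at 9.52 ± 0.10 (SD, n = 3) at 0 Gy and 9.69 ± 0.07 at 2 Gy. It had the highest difference of the 10, 0.17, and NKX2-2 had the lowest, -0.41. Their median difference was -0.13, with 6 lower and 4 higher, and 0 were called. Of the markers of other cell types, 6 of 12 epithelial, 5 of 11 blood cell, 6 of 10 endothelial and 5 of 9 fibroblast markers were above this level on all 6 arrays, and 3, 4, 2 and 2 were above it on none. Their medians differed between the doses by 0.01, 0.01, 0.15 and 0.06, and no marker of these types was called. Among those never above background, the T-cell marker CD3D lay between 2.62 and 2.86 on the 6 arrays, and the fibroblast product POSTN between 2.60 and 2.93.

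At 4 h, genes that build and run the mitotic apparatus fell in irradiated parental cells. Calls required a limma p below 0.05 after Benjamini-Hochberg adjustment over all genes. Of 17687 genes, 40 were called lower (0.226%) and 0 were called higher (0%). At an unadjusted p below 0.05, 664 genes were lower (3.75%) and 519 were higher (2.93%), and the median difference over all genes was 0.01. In the 40 genes, no 2 Gy array reached the lowest 0 Gy array, and all 40 were above background on all 6 arrays. Groups that do not overlap were found for 891 lower genes (5.04%) and 1052 higher genes (5.95%) among all tested. The signal left after 2 Gy ranged from 48.8% of the unirradiated level, for the centromere protein SGO2, to 75.6% for the Golgi mannosidase MANEA. Of the 40, 30 belonged to a list of 151 measured mitosis genes, in which a median of -0.24 was found and 125 members were lower. Over all genes, 8268 of 17687 were lower. The mitosis list was chosen with earlier results of these data known, so its counts are a description and not separate evidence. In that list, 69 members were lower without overlap of the groups and 4 were higher. A p below 0.05 before adjustment was found for 73 members lower and 2 higher. These are bulk RNA samples, so fewer cells in G2 and mitosis and less of these mRNAs per cell cannot be told apart.

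**Figure D1:**
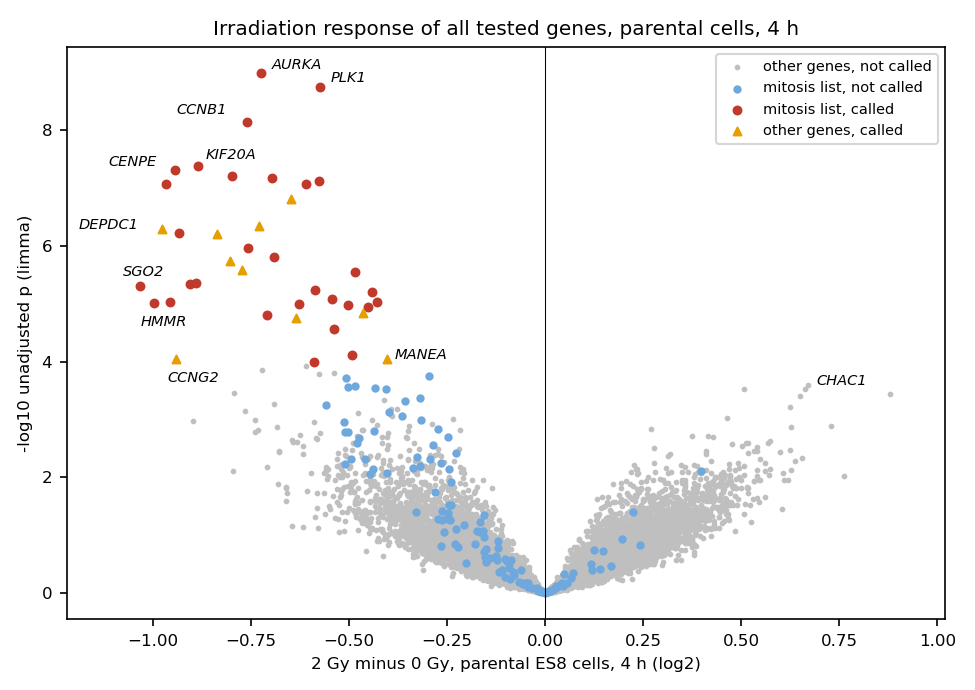
Each point is 1 of 17687 genes: the x axis gives the log2 difference, 2 Gy minus 0 Gy, of the parental arrays at 4 h and the y axis -log10 of the unadjusted limma p. The 40 called genes (red circles in the mitosis list, orange triangles outside it) all lie left of 0, and no gene right of 0 was called.

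The fall is given here for each irradiated array. The 40 genes were chosen for their fall on these same arrays, so their low medians are a description and not separate evidence. Relative to the mean at 0 Gy, the median of the 40 genes was -0.58, -0.80 and -0.64 on the 2 Gy arrays and 0.06, -0.05 and -0.02 on the 0 Gy arrays. Over the whole mitosis list it was -0.14, -0.35 and -0.17 at 2 Gy, and 0.03, -0.05 and 0.00 at 0 Gy. Replicate 2, the irradiated array with the narrowest range of signals, thus lay lowest, and it held the lowest value of 29 of the 40 genes. Its weight in the fit with array weights, 0.438, was the lowest of the 24. Its median was the highest of the irradiated arrays for endothelial markers, 0.30 (0.11 and -0.14 on the others), and for fibroblast markers, 0.29 (0.00 and -0.13). It was the lowest for cell cycle transcription factors, -0.18 (-0.01 and 0.04), and for DNA repair genes, -0.13 (-0.02 and 0.02). For epithelial and blood cell markers it was 0.05 and 0.04, between the other two. The part of these differences in the fall was not tested. Without it, 22 genes were called lower, all among the 40, and the median of the mitosis list was -0.17. SGO2, HMMR, CEP55, CCNG2, CKAP2, ECT2, NDC80, SRGAP2, ASPM, CDCA8, KIFC1, DLGAP5, TTK, KIF11, STIL, TPX2, ANLN and MANEA were not called without that array. Without replicate 1 at 0 Gy, 27 genes were called lower, all among the 40. PRR11, TPX2, CEP55, CKAP2, NDC80, SRGAP2, CDCA8, DLGAP5, TTK, KIF11, STIL, ANLN and MANEA were then not called. RACGAP1 lost its call without replicate 3 at either dose. The other 20 genes were called whichever of the 6 arrays was left out, and 18 of those were called under each of the 15 alternative settings. PLK1 and MKI67 were the exceptions, each losing its call in a setting that kept all 6 arrays.

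The promoters of the falling genes were searched for the motifs of G2/M transcription. RefSeq promoter windows (GRCh38.p14, 250 bases before to 50 after the start of the gene) were matched by gene for 35 of the 40 called genes, all but AURKA, FAM72B, RACGAP1, TPX2 and TTK. To show the order and spacing of the motifs, 5 windows are given with 1 from a replication gene. Each is the 150 bases before the start, read 5′ to 3′ along the gene. PLK1, KIF23, PRC1 and DEPDC1 were picked, among the called genes with the smallest limma p, because these bases hold both CHR and CCAAT. PCNA was picked for its E2F site, so the presence of these motifs was fixed by the choice. CENPE, GAS2L3, CCNG2 and CKAP2, also called, held none of the motifs in their windows. Capitals mark the CHR element (TTTGAA or TTCGAA, here also TTCAAA where it lies on the opposite strand), CCAAT boxes (CCAAT, or ATTGG on the opposite strand) and E2F sites.
PLK1 (chr16:23678739-23678888, plus strand): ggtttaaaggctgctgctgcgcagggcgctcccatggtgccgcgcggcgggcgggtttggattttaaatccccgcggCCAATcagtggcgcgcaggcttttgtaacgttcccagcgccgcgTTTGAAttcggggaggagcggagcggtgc
KIF23 (chr15:69414199-69414348, plus strand): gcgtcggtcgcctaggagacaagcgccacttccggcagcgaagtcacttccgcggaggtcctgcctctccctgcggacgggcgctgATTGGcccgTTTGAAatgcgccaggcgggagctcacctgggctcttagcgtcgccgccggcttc
PRC1 (chr15:90994536-90994685, minus strand): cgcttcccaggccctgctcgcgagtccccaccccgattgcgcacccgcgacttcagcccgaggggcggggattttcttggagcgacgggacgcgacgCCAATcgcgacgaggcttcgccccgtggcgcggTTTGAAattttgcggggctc
DEPDC1 (chr1:68497083-68497232, minus strand): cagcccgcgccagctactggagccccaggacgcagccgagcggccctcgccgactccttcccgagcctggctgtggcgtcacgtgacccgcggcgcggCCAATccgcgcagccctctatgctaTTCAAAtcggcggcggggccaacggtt
CCNB1 (chr5:69167000-69167149, plus strand): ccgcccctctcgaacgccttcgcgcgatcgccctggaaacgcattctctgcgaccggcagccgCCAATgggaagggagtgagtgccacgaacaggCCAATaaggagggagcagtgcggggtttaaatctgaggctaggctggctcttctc
PCNA (chr20:5126623-5126772, minus strand): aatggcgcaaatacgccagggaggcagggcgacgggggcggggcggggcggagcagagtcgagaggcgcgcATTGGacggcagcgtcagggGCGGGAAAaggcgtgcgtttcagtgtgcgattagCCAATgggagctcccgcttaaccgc
In the windows of PLK1, KIF23, PRC1 and DEPDC1, 1 CCAAT box stood upstream of 1 CHR element, the element starting 29, 55, 20 and 27 bases before the start of the gene. The CCNB1 window held 2 CCAAT boxes, 87 and 55 bases before the start, and no CHR element with the letters searched. The window of PCNA, the sliding clamp of DNA replication, held an E2F site (GCGGGAAA, 59 bases before the start) and 2 CCAAT boxes but no CHR element.

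The CHR element was found in 23 of the 35 windows of called genes (65.7%), in 72 of 130 windows of the mitosis list (55.4%), in 3 of 67 of the G1/S and DNA replication list (4.48%), and in 1905 of 14250 windows of tested genes (13.4%). CCAAT boxes were found in 82.9%, 63.8%, 47.8% and 36.4% of the same sets. Sites for E2F (TTTCCCGC, TTTCGCGC, TTTGCCGC or TTTGGCGC) were found in 2.86%, 12.3%, 37.3% and 4.44%. Over all 27305 windows of the same length in the table, the shares were 16.6% for CHR, 35.7% for CCAAT and 3.33% for E2F. Both strands were searched, and the motifs of a set may overlap. In the mitosis list, the 51 genes with both CHR and CCAAT had a median difference of -0.41, and 17 of them were called. The 21 with CHR only had a median of -0.21 and 2 calls, the 32 with CCAAT only -0.07 and 4 calls, and the 26 with neither -0.15 and 3 calls. Outside the mitosis list, 736 genes with both motifs had a median of -0.01, and 4 were called (0.543%). There, 0 of 1097 genes with CHR only were called (0%), 4 of 4374 with CCAAT only (0.0914%) and 1 of 7913 with neither (0.0126%). The medians of these 3 classes were 0.00, 0.01 and 0.02. A match of letters is a description of the window, not a measured binding site, and these shares were not tested.

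**Figure D2:**
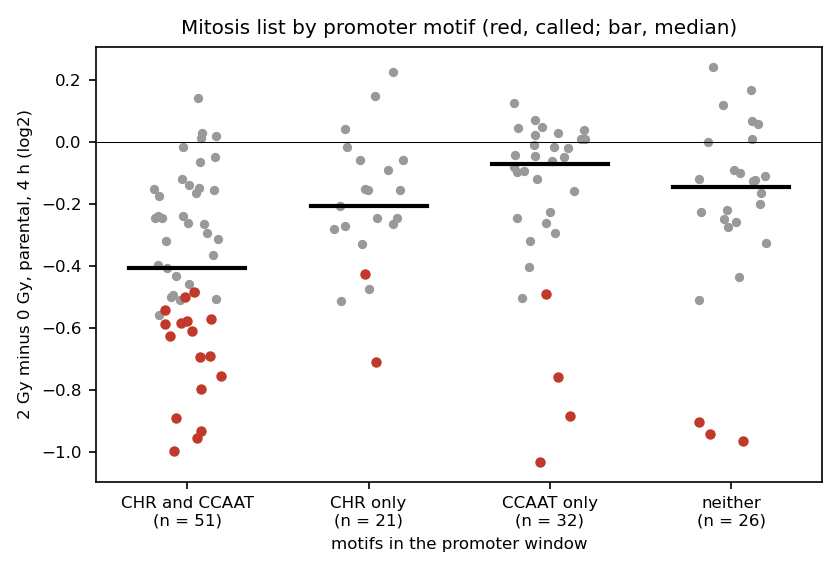
Difference 2 Gy minus 0 Gy (log2) of the 130 mitosis genes with a promoter window, by motifs in that window; red points are called genes and black bars medians. The 51 genes with both CHR and CCAAT have the lowest median, -0.41.

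Cyclins, CDK1 and its regulators trigger entry into mitosis, and 1 of 15 measured was called. This was CCNB1, cyclin B1, the activating subunit of CDK1. The CCNB1 signal was 9.11, 8.96 and 8.80 at 0 Gy and 8.37, 7.91 and 8.31 at 2 Gy. It fell by 0.76 (SE 0.10, adjusted p = 4.2e-05, limma), to 59.1% of the unirradiated signal, and its lowest irradiated array was replicate 2. Of the 15 genes, 9 were lower at an unadjusted p below 0.05 and the median was -0.25. Cyclin A2 (CCNA2), which acts in S and G2 phase, measured 9.91, 9.72 and 9.78 against 9.53, 9.52 and 9.47, without overlap, a difference of -0.30 (SE 0.07, adjusted p = 0.0684). The kinase WEE1, which inhibits CDK1, measured 8.19, 8.13 and 8.23 against 7.82, 7.80 and 7.85. Its difference of -0.36 (SE 0.09, adjusted p = 0.144) did not pass either, although the groups did not overlap. CDK1 itself differed by -0.25 (SE 0.12), its phosphatase CDC25C by -0.51 (SE 0.17) and the anaphase activator CDC20 by -0.27 (SE 0.09); for each of these the groups overlapped and the adjusted p was 0.55 or above. PKMYT1, which like WEE1 inhibits CDK1, had the highest difference in the list, 0.40 (SE 0.14, adjusted p = 0.556).

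Mitotic kinases held the 2 smallest adjusted p of the whole comparison, both 1.54e-05. PLK1, the polo kinase that drives centrosome maturation and mitotic entry, measured 10.79, 10.61 and 10.50 at 0 Gy and 10.10, 10.09 and 10.01 at 2 Gy, a fall of 0.57 (SE 0.07). AURKA, the centrosomal Aurora kinase that activates PLK1, measured 9.16, 8.98 and 8.89 against 8.44, 8.24 and 8.17, a fall of 0.72 (SE 0.09). For both kinases all irradiated arrays lay below all unirradiated arrays, by more than the spread within either group. AURKA was called under each of the 15 alternative settings. PLK1 was called whichever of the 6 arrays was left out, but not under every other setting. The spindle checkpoint kinases BUB1 and TTK fell by 0.69 (SE 0.12, adjusted p = 0.00164) and 0.54 (SE 0.11, adjusted p = 0.0135). BUB1 measured 7.93, 7.79 and 7.97 against 7.36, 6.87 and 7.39, with irradiated replicate 2 far below the other two; without that array the fall was 0.52. With 4 of 13 called and 12 of 13 lower, the kinases had a median of -0.34. AURKB, the Aurora kinase of the chromosomal passenger complex, named after its value was seen, differed by -0.02 (SE 0.09), with 8.63, 8.47 and 8.26 against 8.55, 8.49 and 8.26. The 2 Aurora kinases thus gave unlike values on the same arrays, the difference between them not being tested.

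**Figure D3:**
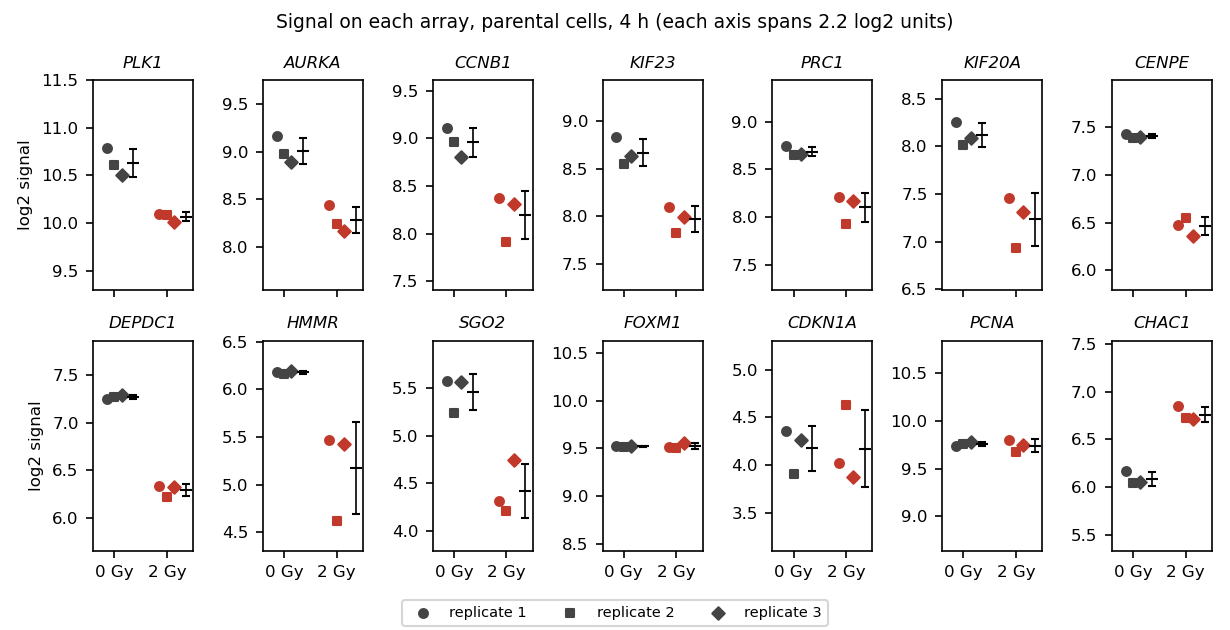
Log2 signal of 14 genes on the 6 parental arrays at 4 h (grey, 0 Gy; red, 2 Gy; symbols mark replicate numbers); horizontal ticks with bars give mean and SD, and every y axis spans the same number of log2 units. The 10 called genes, PLK1 to SGO2, show no overlap between doses, FOXM1, CDKN1A and PCNA overlap, and CHAC1 is higher on all 3 irradiated arrays without being called.

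Kinetochores attach chromosomes to spindle microtubules, and 3 of 30 measured kinetochore and centromere genes were called. CENPE, a kinesin that moves chromosomes to the spindle equator, measured 7.43, 7.39 and 7.40 at 0 Gy and 6.48, 6.55 and 6.36 at 2 Gy. It fell by 0.94 (SE 0.13, adjusted p = 0.000152), and it was called under each alternative setting. CENPF, a protein of the outer kinetochore, measured 7.83, 7.72 and 7.72 against 7.20, 7.04 and 7.20 and fell by 0.61 (SE 0.09, adjusted p = 0.000152). NDC80, the microtubule-binding subunit of the complex of that name, fell by 0.71 (SE 0.14, adjusted p = 0.00811). The median over the 30 genes was smaller, -0.18. CENPA, the histone H3 variant that marks centromeres, named after its value was seen, had no overlap (6.91, 6.96 and 6.89 against 6.31, 6.35 and 6.59) and a difference of -0.50, with an adjusted p of 0.0981. CENPT, of the inner kinetochore, had the highest difference, 0.17 (SE 0.18). Of 18 genes of the spindle checkpoint and the anaphase-promoting complex, 0 were called; 4 were lower at an unadjusted p below 0.05 and the median was -0.16. SPDL1, which recruits dynein to kinetochores, was lowest at -0.41 (SE 0.10, adjusted p = 0.0991), and the checkpoint protein MAD1L1 highest at 0.24 (SE 0.16).

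Chromosome passenger, cohesion and condensation genes had 3 of 25 called. SGO2, a shugoshin that guards cohesin at centromeres, had the lowest difference of all tested genes. Its signal was 5.57, 5.24 and 5.56 at 0 Gy and 4.31, 4.21 and 4.74 at 2 Gy, a fall of 1.03 (SE 0.19, adjusted p = 0.00376). The irradiated level was not far above background, and the call was lost without irradiated replicate 2. MKI67, the Ki-67 protein that coats mitotic chromosomes and marks cycling cells, fell by 0.49 (SE 0.09, adjusted p = 0.00252), from 9.44, 9.53 and 9.31 to 9.01, 8.99 and 8.82. CDCA8, the borealin subunit of the passenger complex, fell by 0.59 (SE 0.13, adjusted p = 0.0445), and was not called with any 1 of the 6 arrays left out. SGO1, the other shugoshin, likewise named afterwards, differed by -0.43 (SE 0.11, adjusted p = 0.0987) without overlap. CDCA5, the cohesin-stabilizing sororin, was highest, at 0.22 (SE 0.10, adjusted p = 0.726). The median over the 25 genes was -0.15.

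Kinesin motors of the spindle had 5 of 14 called, 13 of 14 lower and a median of -0.40. KIF20A, which carries the passenger complex to the midzone, measured 8.26, 8.01 and 8.09 at 0 Gy and 7.46, 6.93 and 7.31 at 2 Gy, a fall of 0.89 (SE 0.12, adjusted p = 0.000152). KIF14, a motor of late cytokinesis, fell by 0.80 (SE 0.11), from 7.68, 7.44 and 7.55 to 6.94, 6.57 and 6.77. KIF23, a midzone motor whose promoter is shown above, fell by 0.70 (SE 0.10), from 8.83, 8.55 and 8.63 to 8.10, 7.83 and 7.99. Both had an adjusted p of 0.000152, and in both the doses were separated on every array. KIFC1, which clusters spindle poles, and KIF11, which pushes poles apart, fell by 0.59 (SE 0.11, adjusted p = 0.00428) and 0.50 (SE 0.10, adjusted p = 0.00604). The exception in direction was KIF4B at 0.14 (SE 0.16), which was below background on all 6 arrays.

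Spindle assembly and centrosome genes had 8 of 26 called and a median of -0.24. HMMR, a protein of spindle poles, measured 6.18, 6.16 and 6.19 at 0 Gy and 5.47, 4.62 and 5.43 at 2 Gy. Its fall of 1.00 (SE 0.19, adjusted p = 0.0058) leaned on replicate 2: without that array it was 0.72 and was not called. PSRC1, a microtubule-binding protein of the spindle, fell by 0.93 (SE 0.15, adjusted p = 0.000722), from 6.52, 6.26 and 6.25 to 5.50, 5.25 and 5.47. CKAP2 and its relative CKAP2L, both bound to spindle microtubules, fell by 0.90 (SE 0.16, adjusted p = 0.00371) and 0.76 (SE 0.13, adjusted p = 0.00119). ASPM at spindle poles fell by 0.63 (SE 0.12, adjusted p = 0.0058), and DLGAP5, which stabilizes fibres to kinetochores, by 0.54 (SE 0.10, adjusted p = 0.00555). STIL, needed to duplicate centrioles, fell by 0.49 (SE 0.11, adjusted p = 0.0361), and TPX2, the activator of AURKA on the spindle, by 0.45 (SE 0.09, adjusted p = 0.00635). TPX2 measured 9.09, 8.87 and 8.96 against 8.59, 8.48 and 8.50. HAUS2, of the augmin complex, had the highest difference, 0.06 (SE 0.13).

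Cytokinesis, the division of the cell body after anaphase, had the lowest median of the roles, -0.43, with 6 of 10 genes called. GAS2L3, which links actin and microtubules at the midbody, measured 8.06, 8.25 and 7.72 at 0 Gy and 7.13, 7.32 and 6.69 at 2 Gy, a fall of 0.97 (SE 0.14, adjusted p = 0.000152). PRC1, which bundles midzone microtubules, measured 8.74, 8.65 and 8.66 against 8.21, 7.93 and 8.17, a fall of 0.58 (SE 0.08, adjusted p = 0.000152). The lowest array of each dose group was replicate 3 for GAS2L3 and replicate 2 for PRC1, and the doses did not overlap in either gene. CEP55, which recruits the abscission machinery, fell by 0.96 (SE 0.18, adjusted p = 0.0058), and ECT2, the exchange factor that switches on RhoA at the equator, by 0.89 (SE 0.16, adjusted p = 0.00363). The irradiated mean of CEP55, 4.49, was not far above background. RACGAP1, the partner of KIF23 in centralspindlin, fell by 0.44 (SE 0.08, adjusted p = 0.00448), and ANLN, the anillin scaffold of the contractile ring, by 0.43 (SE 0.08, adjusted p = 0.0058). The 4 others, among them the myosin MYH10 with the highest difference (0.07, SE 0.09), did not pass.

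Another 10 called genes were outside the mitosis list. DEPDC1, whose promoter holds the CHR and CCAAT motifs shown above, measured 7.25, 7.27 and 7.29 at 0 Gy and 6.34, 6.22 and 6.32 at 2 Gy, a fall of 0.98 (SE 0.16, adjusted p = 0.000692). The groups lay far apart relative to their SDs of 0.02 and 0.06. Elsewhere in the series DEPDC1 varied more, with an SD of 0.31 in parental cells at 2 Gy and 24 h and 0.4 in knockout cells at 0 Gy and 4 h. FAM72A, FAM72B, FAM72C and FAM72D, close copies whose probe sets may pick up each other's RNA, fell by 0.84, 0.77, 0.65 and 0.73 (SE 0.13, 0.14, 0.10 and 0.12; adjusted p = 0.000722, 0.00244, 0.000249 and 0.000652). FAM72A measured 8.52, 8.55 and 8.51 against 7.86, 7.57 and 7.64. SRGAP2, a RhoGAP of neuronal migration that RefSeq places next to FAM72A, fell by 0.64 (SE 0.13, adjusted p = 0.00898). Its copies SRGAP2B and SRGAP2C, named after their values were seen because they neighbour FAM72D and FAM72B, differed by -0.35 (SE 0.12, adjusted p = 0.519) and -0.27 (SE 0.12, adjusted p = 0.684). TRIM59, a RING-finger protein, fell by 0.80 (SE 0.14, adjusted p = 0.00176), from 8.01, 7.82 and 7.98 to 7.05, 6.93 and 7.42. PRR11 fell by 0.46 (SE 0.09, adjusted p = 0.00767), whereas SKA2, its neighbour and a kinetochore gene, also named after its value was seen, differed by -0.06 (SE 0.07). CCNG2, an unconventional cyclin tied to growth arrest, fell by 0.94 (SE 0.21, adjusted p = 0.0407), from 5.05, 5.46 and 5.79 to 4.65, 4.25 and 4.58. That irradiated level was not far above background. MANEA fell by 0.40 (SE 0.09, adjusted p = 0.0407). CCNG2 lost its call without each of 5 of the 6 arrays, and MANEA without each of the 6.

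No regulator of the G2/M genes was called. Of 23 cell cycle transcription factors, 0 were called, 4 were lower and 0 higher at an unadjusted p below 0.05, and the median was -0.12. FOXM1, the forkhead activator of G2/M genes, measured 9.52, 9.51 and 9.53 at 0 Gy and 9.51, 9.50 and 9.56 at 2 Gy. Its difference was 0.01 (SE 0.07, adjusted p = 0.994), with all 6 arrays within the range of 9.50 to 9.56. MYBL2 differed by 0.15 (SE 0.10, adjusted p = 0.829), E2F1 by 0.18 (SE 0.13, adjusted p = 0.856) and the MuvB subunit LIN9 by -0.12 (SE 0.16, adjusted p = 0.94). RBL2 (p130), the pocket protein of DREAM, was the lowest, with 6.37, 6.76 and 6.64 against 6.29, 6.0 and 6.37 (-0.37, SE 0.13, adjusted p = 0.556). LIN37, another MuvB subunit, was highest at 0.22 (SE 0.11, adjusted p = 0.762). Arrays measure mRNA, so the activity of these proteins was not measured.

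Genes of the G1/S transition and of DNA replication held no call, with 0 of 79; 6 were lower and 5 higher at an unadjusted p below 0.05, and the median was 0.03. PCNA measured 9.74, 9.76 and 9.78 at 0 Gy and 9.80, 9.67 and 9.75 at 2 Gy, a difference of -0.02 (SE 0.07, adjusted p = 0.986). RRM2, of ribonucleotide reductase, differed by 0.10 (SE 0.07) and the helicase subunit MCM5 by 0.16 (SE 0.09). CCNE1 and CCNE2, the E cyclins that start S phase, differed by 0.03 (SE 0.21) and -0.22 (SE 0.22). The highest difference was that of the licensing factor CDT1, 0.38 (SE 0.14, adjusted p = 0.582), and the lowest that of ORC4, of the origin recognition complex, -0.42 (SE 0.13, adjusted p = 0.378). Replication-dependent histones, transcribed in S phase, had 0 of 47 called and 42 of 47 lower, with a median of -0.12. The lowest, H2BC14, varied widely within each group (8.06, 7.29 and 6.70 against 7.26, 6.70 and 6.15), and its difference of -0.64 (SE 0.34) was not called (adjusted p = 0.766).

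**Figure D4:**
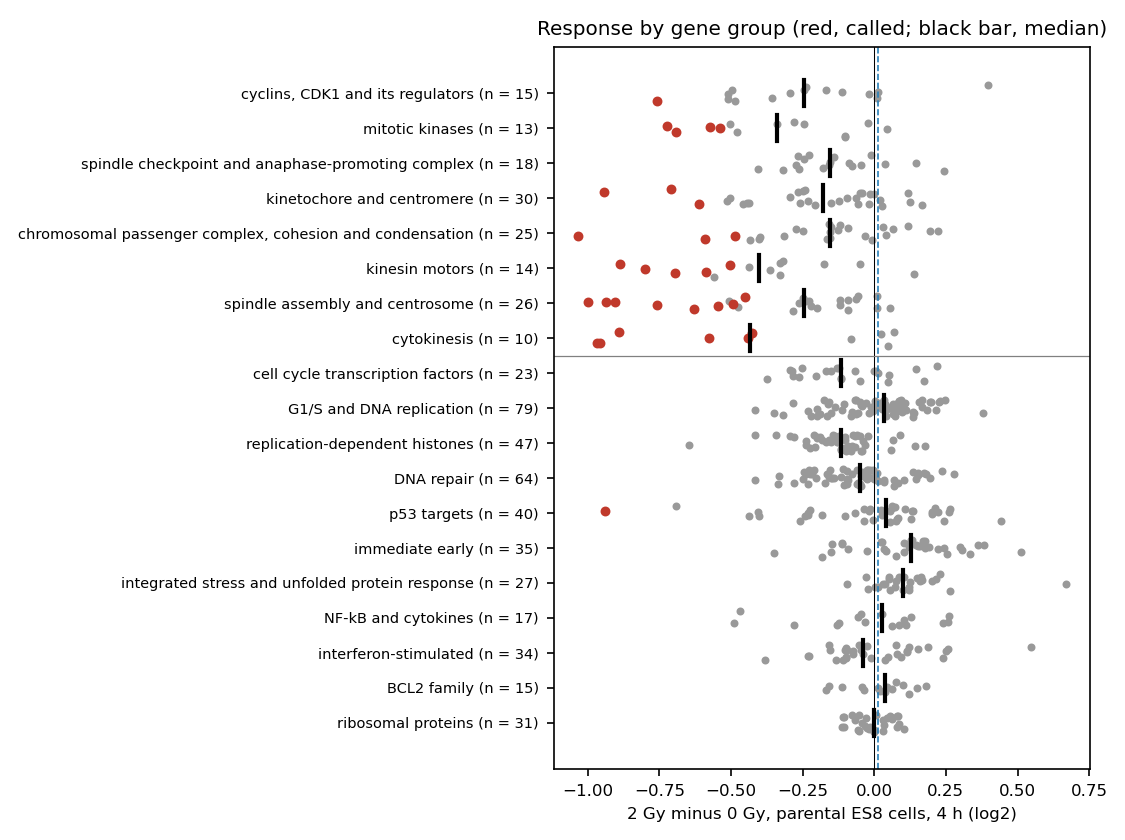
Difference 2 Gy minus 0 Gy (log2) of every measured member of the 8 roles of the mitosis list (above the line) and of 11 other lists (under it), with red points for called genes, black bars for medians and a dashed line at the median of all genes, 0.01. Called genes lie in the mitosis roles, except CCNG2 in the p53 list, and the medians of the other lists lie between -0.12 and 0.13.

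Targets of the tumour suppressor p53, which induces arrest and death genes after DNA damage in cells where it works, showed no rise that passed. Of 40 measured, 0 were called higher and 1, CCNG2, was called lower; at an unadjusted p below 0.05, 6 were lower and 0 higher, and the median was 0.04. CDKN1A (p21), the inhibitor of cyclin-dependent kinases, measured 4.36, 3.91 and 4.26 at 0 Gy and 4.02, 4.63 and 3.87 at 2 Gy. The groups overlapped, with means of 4.18 ± 0.24 and 4.17 ± 0.40 (SD, n = 3) that lie near the background level. MDM2, the p53 ubiquitin ligase, differed by -0.23 (SE 0.14, adjusted p = 0.809), the death receptor FAS by -0.24 (SE 0.19), GDF15 by 0.13 (SE 0.22) and GADD45A by 0.22 (SE 0.15). SESN1, a stress-induced sestrin, differed by -0.40 (SE 0.24), and TP53INP1, above background on 1 of 6 arrays, by 0.02 (SE 0.23). APAF1, the scaffold of the apoptosome, was lower on all irradiated arrays (4.91, 5.15 and 5.49 against 4.38, 4.31 and 4.77), a difference of -0.69 (SE 0.18, adjusted p = 0.159). The highest member was ABHD4 at 0.44 (SE 0.24, adjusted p = 0.777). Of 15 BCL2 family genes, 0 were called and 0 had an unadjusted p below 0.05, with differences from -0.17 (BCL2L11) to 0.18 (BCL2L1).

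DNA repair and checkpoint genes had 0 of 64 called and a median of -0.05; 4 were lower and 2 higher at an unadjusted p below 0.05. ATM, the kinase that senses DNA breaks, measured 7.73, 7.76 and 7.84 at 0 Gy and 7.83, 8.04 and 7.71 at 2 Gy, a difference of 0.08 (SE 0.10, adjusted p = 0.934). CHEK1 differed by -0.11 (SE 0.10), the Ku subunit XRCC5 by -0.09 (SE 0.07) and the histone H2AX by -0.02 (SE 0.07). For each of these 4 genes the doses overlapped. The helicase WRN was lowest, without overlap (6.53, 6.43 and 6.57 against 6.18, 5.99 and 6.12; -0.42, SE 0.12, adjusted p = 0.337). PRKDC, the catalytic subunit of the end-joining kinase, was higher on all irradiated arrays (9.12, 9.25 and 9.29 against 9.38, 9.60 and 9.38; 0.24, SE 0.08, adjusted p = 0.556). RMI2, of the complex that dissolves recombination intermediates, was the highest of the list at 0.28 (SE 0.13, adjusted p = 0.719).

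No gene rose by the call used, and the largest positive differences are given as values. Among genes with an unadjusted p below 0.01 and no overlap of the groups, the 10 with the largest rise were ARMCX5-GPRASP2, SPSB1, CHAC1, CCSER1, ZGLP1, KRTAP3-2, KRTAP10-10, C5orf46, EHD2 and MITF, with differences from 0.88 to 0.63. CHAC1, an enzyme that breaks down glutathione and a target of the stress factor ATF4, measured 6.17, 6.04 and 6.05 at 0 Gy and 6.85, 6.72 and 6.71 at 2 Gy. Its difference of 0.67 (SE 0.16, adjusted p = 0.0959) missed the threshold, and it was called higher in 3 alternative fits. These were the fit to the 12 parental arrays alone (1 gene called higher), that with array weights (8 higher) and that blocked on replicate numbers (11 higher). SPSB1, an adaptor of a ubiquitin ligase, measured 5.07, 5.19 and 4.86 against 5.69, 5.50 and 6.11 (0.73, SE 0.21, adjusted p = 0.278). Several of the 10 were dim: CCSER1 was below background on all 6 arrays, ARMCX5-GPRASP2 above it on 2, and KRTAP3-2, C5orf46 and MITF on 3. Over all genes, 9419 of 17687 were higher, with a median of 0.01. The integrated stress and unfolded protein response list, to which CHAC1 belongs, had 24 of 27 members higher, 2 of them at an unadjusted p below 0.05, and a median of 0.10. Immediate early genes had 27 of 35 higher, 4 at an unadjusted p below 0.05, and a median of 0.13. In that list ATF3 was highest, at 4.23, 3.86 and 3.31 against 4.41, 4.25 and 4.28 (0.51, SE 0.22, adjusted p = 0.705), while FOS, EGR1 and JUN differed by 0.11 (SE 0.18), 0.02 (SE 0.28) and 0.16 (SE 0.22).

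Inflammatory and lineage genes held no call other than AURKA. Of 34 interferon-stimulated genes, 0 were called, 1 (IRF1, 0.55, SE 0.23, adjusted p = 0.684) had an unadjusted p below 0.05, and 12 were below background on all 6 arrays. ISG15, a ubiquitin-like protein induced by interferon, differed by 0.12 (SE 0.20). NF-kB targets and cytokines had 0 of 17 called and a median of 0.03; the lowest, TNFAIP3 (-0.49, SE 0.20), was above background on 1 array. Of 33 genes that the Ewing sarcoma fusion protein EWSR1-FLI1 is known to activate, 1 was called lower, AURKA, which is also a mitotic kinase, and the median was -0.06. Of 18 that it represses, 0 were called, with a median of -0.01. Ribosomal protein genes, abundant in growing cells, had 0 of 31 called and differences between -0.11 (RPL27) and 0.10 (RPL19). The mitochondrial respiratory chain (31 genes, median 0.02) and cholesterol synthesis (17 genes, median 0.10) also had 0 called.

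The same treatment and time in the SLFN11 knockout line gives a comparison whose means come from other arrays. Both comparisons share the estimate of spread, which was fitted over all 24 arrays; with the 6 parental arrays alone, 27 genes were called lower, all among the 40. There, 0 of 17687 genes were called in either direction (0%), 583 had an unadjusted p below 0.05 (3.3%), and the lowest adjusted p was 0.105. This count depends on the setting, with 5 called with array weights, 27 in the fit blocked on replicate numbers and 1 without the intensity trend or without replicate 3 at 0 Gy. The 40 genes that fell in parental cells all had a negative difference in knockout cells, from -0.76 (PSRC1) to -0.06 (PRR11), with a median of -0.36, and 32 of them had an unadjusted p below 0.05. The 8 without were HMMR, CCNG2, CKAP2, KIF11, STIL, PRR11, ANLN and MANEA. The mitosis list had a median of -0.14, with 124 of 151 lower. AURKA averaged 9.10 ± 0.17 at 0 Gy and 8.65 ± 0.08 at 2 Gy in knockout cells (SD, n = 3), a difference of -0.45 (SE 0.09) against -0.72 in parental cells. PLK1 averaged 10.67 ± 0.07 and 10.41 ± 0.15, a difference of -0.26 (SE 0.07) against -0.57.

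The difference was smaller in knockout cells for each of the 40 genes, but they were chosen for their fall in parental cells, which favours that direction. In the test of the difference between the 2 responses itself, 0 genes were called in either direction (0%), 461 had an unadjusted p below 0.05 (2.61%), and the lowest adjusted p was 1. Of the 40 genes, 17 had an unadjusted p below 0.05. For PLK1 the knockout response was 0.31 higher (SE 0.10, unadjusted p = 0.00335) and for RACGAP1, the gene with the smallest difference, 0.09 higher (SE 0.12, unadjusted p = 0.456). The median 95% interval of such a difference reached 0.44 to either side, and differences within the interval of a gene were not detectable for that gene. Adjustment over all genes asks for more, so a difference outside the interval, as for PLK1, could also stay uncalled.

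At 24 h after irradiation, on other arrays of parental cells, 12 of 17687 genes were called higher (0.0678%) and 0 lower (0%). The number called at 24 h was 3 to 7 with any 1 of these 6 arrays left out, 22 with array weights, 7 without the intensity trend and 202 in the fit blocked on replicate numbers. The differences of the 40 genes at 24 h ran from -0.21 (CEP55) to 0.30 (CENPE), with 20 of 40 below 0 and a median of 0.00, and none of the 40 was called. CENPE and AURKA were the 2 with an unadjusted p below 0.05, both higher. AURKA averaged 8.96 ± 0.03 at 0 Gy and 9.19 ± 0.04 at 2 Gy (SD, n = 3), where at 4 h it had averaged 9.01 ± 0.14 and 8.29 ± 0.14. CENPE averaged 7.29 ± 0.14 and 7.59 ± 0.08, after 7.40 ± 0.02 and 6.46 ± 0.09 at 4 h. In both genes the unirradiated means lay closer together between the times than the irradiated means.

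The change between the times was tested as the response at 24 h minus the response at 4 h. It was called higher for 13 genes (0.0735%) and lower for 0 (0%), with 865 at an unadjusted p below 0.05 (4.89%). Of the 13, 11 were among the 40 genes called at 4 h and 9 were in the mitosis list. This contrast holds the same arrays at 4 h that chose the 40 genes, which favours a positive value for them, so the overlap is a description and not separate evidence. AURKA had a difference of 0.96 (SE 0.12, adjusted p = 7.4e-05), PLK1 of 0.69 (SE 0.10, adjusted p = 0.000405) and CENPE of 1.24 (SE 0.19, adjusted p = 0.00116). CCNB1, KIF23, CENPF, RACGAP1, GAS2L3, TRIM59, DEPDC1 and PRC1 made up the rest of the 11, with differences from 0.59 to 1.12. The other two were CREB5 and ZNF850. CREB5, a transcription factor of the CREB family, did not differ beyond its spread at 4 h (0.05, SE 0.18) and rose by 1.60 at 24 h (SE 0.18, adjusted p = 6.2e-06). With single arrays left out, between 6 and 21 genes were called: 6 without replicate 3 at 0 Gy and 24 h, replicate 1 or 3 at 2 Gy and 24 h, or replicate 1 at 0 Gy and 4 h, 8 without replicate 2 at 2 Gy and 4 h, and 21 without replicate 2 at 2 Gy and 24 h.

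**Figure D5:**
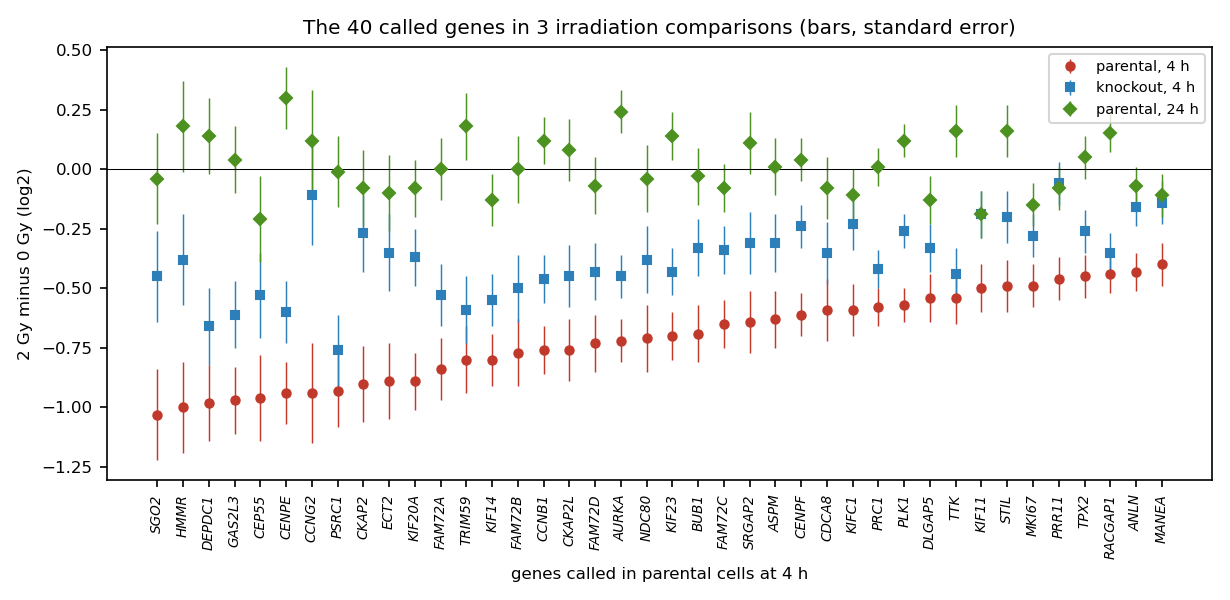
Difference 2 Gy minus 0 Gy (log2) with its standard error for the 40 genes that fell in parental cells by 4 h (red circles), in knockout cells at 4 h (blue squares) and in parental cells at 24 h (green diamonds), on arrays that do not overlap between the comparisons. All blue points lie between the red points and 0, and the green points lie between -0.21 and 0.30.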

How the data were processed

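RNA was labelled from 100 ng of total RNA per array and hybridised to Affymetrix whole-transcript arrays. The deposited log2 values per probe set were made by the authors with RMA in Affymetrix Expression Console 1.1, per the submitters' processing notes; which arrays were normalized together and the build behind the probe sets are not given in the sources used here. RMA equalizes the arrays' distributions, so a change shared by most genes would be removed. Of 24351 probe sets, 17709 carried 1 symbol and 0 several, 2840 were controls and 3802 others were unnamed; for 20 genes with several probe sets the brightest was kept, which left 17687 genes.

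The tests used limma 3.58.1 under R 4.3.3 (1 mean per group over all 24 arrays, eBayes with an intensity trend) without a filter on dim genes, with calls at p below 0.05 after Benjamini-Hochberg adjustment. The number of arrays limits precision: the median 95% interval of a difference reached 0.31 to either side. Tested on simulated data for the parental 4 h comparison (17687 genes, 10 draws), the fit recovered 41.2%, 92% and 100% of changes of 0.5, 1 and 2 log2 units. It made 81 false calls over the 10 draws. Each draw planted more changed genes than were called in the data, in both directions and with independent normal noise. Recovery of such changes in the data may therefore be lower.

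The members and gene lists were chosen with earlier results of these data known, so lists are described by counts and medians beside those of all genes. Genes named are all called genes, fixed readouts of damage and cycle control, and the 10 largest uncalled rises. Also named are the genes called for a change between the times and the highest or lowest members of many lists, though not of all. Others are marked in the text as named after their values were seen. Alternatives were other array subsets, array weights, the replicate number as a block, 2 further normalizations, a minimum mean signal of 5, no intensity trend, probe set averaging, and leaving out single arrays; the last was added after seeing the data for the knockout and 24 h comparisons. Python 3.11.15, pandas 2.3.3 and matplotlib 3.10.9 were used for summaries.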

Additional observations from a re-analysis of the deposited data

Results flagged for a closer look

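For 13 genes the response of parental cells to 2 Gy differed between 24 h and 4 h in the limma test of that difference (3 arrays a group), each time with the higher response at 24 h. On the log2 scale the response at 24 h minus that at 4 h was 1.12 for DEPDC1, 1.01 for GAS2L3, 1.24 for CENPE, 0.99 for TRIM59, 0.88 for CCNB1 and 0.96 for AURKA. It was 0.84 for KIF23, 0.65 for CENPF, 0.59 for PRC1, 0.69 for PLK1 and 0.59 for RACGAP1. These 11 genes were called lower at 4 h, and none of them was called at 24 h. CREB5 (1.55) and ZNF850 (0.93) were not called at 4 h; CREB5 was called higher at 24 h, by 1.60, and ZNF850 was not (0.45, SE 0.13, adjusted p = 0.279). At 4 h ZNF850, a zinc-finger protein gene, differed by -0.48 (SE 0.13, adjusted p = 0.205).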

How the results depend on the processing

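The 40 genes called lower at 4 h became 24 without the intensity trend and 22 to 42 with single arrays left out; the 0 called higher became 1 with the 12 parental arrays alone, 8 with array weights and 0 to 2 with single arrays left out. The median of the mitosis list moved by less than its spread under all 15 settings, between -0.26 and -0.17. In knockout cells the 0 called became 5 with array weights, 1 without the trend and 0 to 1 with single arrays left out. The 12 genes called at 24 h became 22, 7 and 3 to 7, and the 13 of the 24 h minus 4 h response 47, 3 and 6 to 21, in the same order, the latter also 7 with a common median and interquartile range. The difference between the lines at 4 h kept 0 calls under each setting run. Taking replicate numbers as a replicate block gave 100 calls lower and 11 higher at 4 h, 27 in knockout cells, 202 at 24 h and 89 in the 24 h minus 4 h response. Same-numbered arrays of the 2 doses had deviation correlations of 0.094, 0.211 and 0.406, the first below the minimum of 0.1 set for pairing, and 5 of 6 arrays deviated most like their own number, a hint from the data and not from the design. No result reversed; of the values of single genes, each under 1 setting, 1700 stayed on their side of the threshold, 96 lost a call and 20 gained one, and of the list medians 296 stayed within their spread and 19 moved. The cause of these changes was not tested. Signals near background limit the dim genes, which may understate their differences.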
